A study of Mus musculus with 6 samples.

Results

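The genes described here make up the core of endocannabinoid signalling: the cannabinoid receptor gene Cnr1 and 7 genes for enzymes that make or break down its lipid ligands (Dagla, Daglb, Napepld, Mgll, Abhd6, Abhd12 and Faah). They were chosen by function, with earlier results of these data known. Each was measured by its probe set with the highest mean signal among those that the platform annotation assigns to a single gene. All 8 had exactly 1 such probe set, out of 22180 genes measured in all. Signals were log2 values from RMA, a procedure that normalizes the arrays together and summarises the probes of a gene, so that a step of 1 is a doubling.

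Hippocampal RNA of male mice, with C57BL/6J as strain background and an age of 56 days after birth, was hybridised to 1 array per sample. The 3 wild-type and the 3 knockout samples differed in Trpc4, which encodes a receptor-operated cation channel, and no treatment or second allele is named for either group. It is not stated in the labels which exons of Trpc4 were removed, or whether the deletion was limited to a cell type. Nor do they say whether each replicate is a separate animal, so the scatter behind the p-values may be partly technical. Limma, the test used, draws each gene's variance towards a value shared by all genes. Standard errors, intervals and p-values thus do not rest on that gene's scatter alone. Dissected hippocampus holds neurons, glia and vessels together, and in such bulk RNA fewer cells of a type and less RNA per cell cannot be told apart.

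Endocannabinoids are lipids made on demand in the postsynaptic membrane that travel backwards across the synapse. There they bind CB1, the Gi/o-coupled receptor encoded by Cnr1, and reduce transmitter release from the terminal. The main ligands are 2-arachidonoylglycerol, made from diacylglycerol by the lipases of Dagla and Daglb, and anandamide, one route to which runs through NAPE-PLD, the phospholipase encoded by Napepld. In hippocampus CB1 is densest on the terminals of interneurons that contain cholecystokinin and is also present on glutamatergic terminals. Gq-coupled receptors and phospholipase C supply the diacylglycerol, and the same receptors open TRPC4 channels.

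The targeted gene was lower in the samples labelled knockout. Trpc4 signals were 8.06, 8.23 and 8.06 in wild-type replicates 1 to 3 and 7.39, 7.55 and 7.31 in knockout replicates 1 to 3, a difference of -0.70 ± 0.09 (knockout minus wild type on the log2 scale ± standard error, the form used for every difference here). The unadjusted limma p of Trpc4 was 8.87e-05 and its adjusted p 0.738. Over all 22180 genes limma called 0 genes at an adjusted p under 0.05 (0% of those tested) and 1276 at an unadjusted p under 0.05 (5.75%). The array medians lay between 4.73 and 4.75. Markers of the hippocampal fields were compared with 4.72, the median over all probe sets. Above it in mean signal were 6 of 7 dentate granule cell, 5 of 5 CA1 and 5 of 5 CA3 markers. So were 12978 of all 22180 genes and 1 of 4 measured genes chosen as low in hippocampus. This median is not a threshold of detection.

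The sequences just upstream of 3 members are printed first, because they stand for the receptor and for the main hydrolase of each ligand: Cnr1, Faah for anandamide and Mgll for 2-arachidonoylglycerol. Each line gives the 250 bases before the first start that RefSeq annotates in build GRCm38.p6, read 5′ to 3′ in the direction of transcription, with CG pairs in capitals.
Cnr1, chr4:33924014-33924263, plus strand: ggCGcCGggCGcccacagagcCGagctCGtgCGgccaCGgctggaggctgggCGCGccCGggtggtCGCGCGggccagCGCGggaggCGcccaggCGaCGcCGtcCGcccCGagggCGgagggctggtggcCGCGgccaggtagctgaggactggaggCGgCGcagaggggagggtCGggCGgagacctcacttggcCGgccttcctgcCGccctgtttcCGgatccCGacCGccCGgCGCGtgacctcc
Faah, chr4:116017925-116018174, minus strand: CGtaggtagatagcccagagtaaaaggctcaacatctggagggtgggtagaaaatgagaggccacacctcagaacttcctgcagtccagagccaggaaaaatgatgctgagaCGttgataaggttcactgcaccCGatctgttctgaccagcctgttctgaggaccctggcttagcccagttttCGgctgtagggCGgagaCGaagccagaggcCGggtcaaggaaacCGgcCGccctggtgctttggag
Mgll, chr6:88724162-88724411, plus strand: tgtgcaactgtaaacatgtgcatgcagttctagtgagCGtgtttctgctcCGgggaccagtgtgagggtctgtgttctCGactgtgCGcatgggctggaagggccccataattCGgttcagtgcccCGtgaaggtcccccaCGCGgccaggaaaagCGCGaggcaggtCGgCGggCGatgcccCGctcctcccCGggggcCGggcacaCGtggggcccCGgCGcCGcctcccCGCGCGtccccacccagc

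The table of RefSeq promoter windows used here covered 6 of the 8 genes, with 10 annotated starts among them, and Dagla and Abhd12 were not among them. The Cnr1 window above held 36 CG pairs, and 2.58% of all 32851 windows of that length held at least as many. Cnr1 has 3 annotated starts, and the window of the third held 5 CG pairs, below the median of 6 over all windows. The array signal does not say which start was used. The Mgll window printed above held 23 CG pairs (13.3% of windows held at least as many). Mgll has 2 annotated starts, and the window of the other held 40 CG pairs (1.31%), the most of the 10. The Faah window held 9 (40.3%). Of the 10 windows, 9 were at or above the median. The windows are not independent, since they belong to 6 genes and those of Abhd6 overlap. A GC box, the letters GGGCGG on either strand, which itself contains a CG pair, was found in 4 of the 10 windows against 32.7% of all windows, with 5 matches in the first Cnr1 window and 2 in that of Faah. The letters TATAAA, on either strand, were in 0 of the 10 windows and in 12.4% of all. These matches describe letters and are not measured binding sites.

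None of the 8 genes passed the test between knockout and wild-type hippocampus, and 6 of them differed by less than 0.04 on the log2 scale. Of the 8, 7 were higher and 1 lower in knockout, against 54.9% higher over all genes, and their median difference was 0.03 against 0.01 for all genes. With the values normalized again by quantiles 6 were higher, as Dagla changed sign. The count also leans on knockout replicate 1. Without that sample Cnr1 (-0.018), Dagla (-0.015), Mgll (-0.0044) and Napepld (-0.012) were lower in knockout and Abhd12 (0.0044) was higher. Limma called 0 of the 8 at an adjusted p under 0.05 and 0 at an unadjusted p under 0.05, against 0% and 5.75% of all genes. The adjusted p ran from 0.857 for Faah to 0.990 for Dagla, and all 8 intervals included 0. For all 8, the 95% interval lay within 0.5 on the log2 scale in either direction, and for 5 within 0.25. The widest bounds over the 8 genes corresponded to a knockout signal of 0.875 times (Daglb) and 1.33 times (Napepld) that of wild type. Only Faah had groups that did not overlap. That is 12.5% of the 8 genes, close to the 10.9% of all genes whose groups do not overlap in either direction, and 6.41% of all genes had every knockout sample above wild type.

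**Figure D1:**
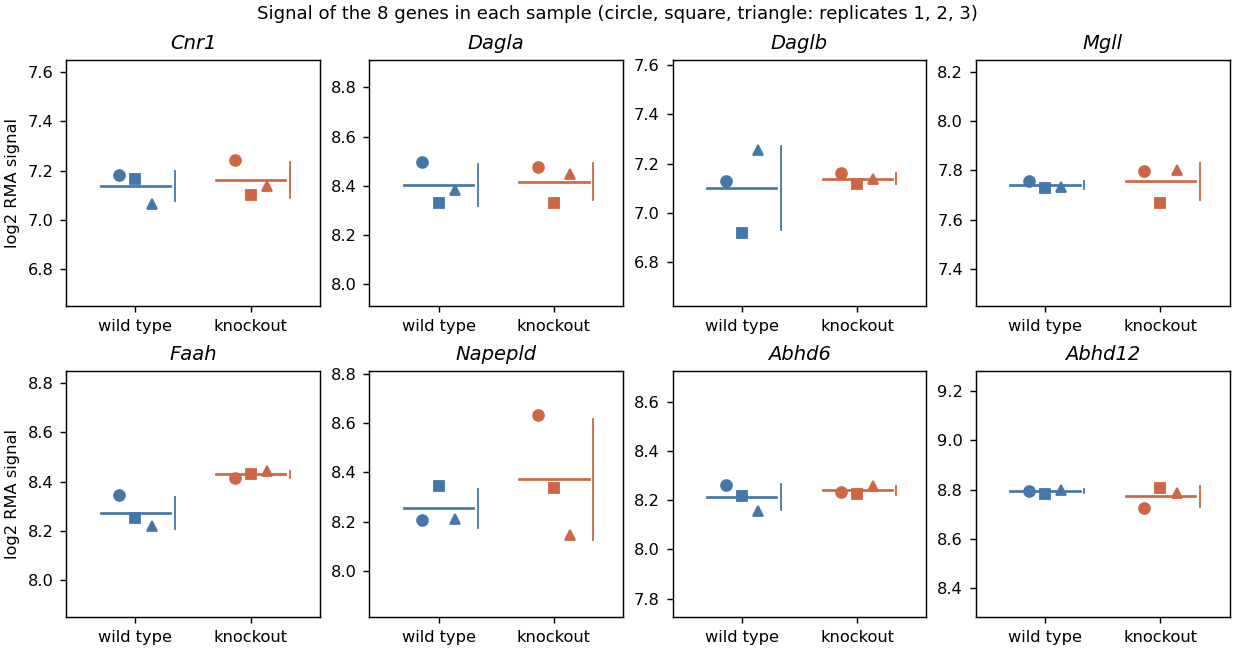
Log2 RMA signal of each gene in each sample, by genotype; points are samples, horizontal bars group means and vertical lines 1 SD to either side (n = 3 each), and every panel spans the same height of 1 on the log2 scale. Faah is the gene whose groups do not overlap, and Napepld has the widest spread among knockout samples, from 8.15 to 8.63.

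Cnr1, the receptor gene, had signals of 7.18, 7.17 and 7.07 in wild-type replicates 1 to 3 and of 7.24, 7.10 and 7.14 in knockout replicates 1 to 3. The groups overlapped, with the highest value in knockout replicate 1 and the lowest in wild-type replicate 3. The difference was 0.02 ± 0.08, with a 95% interval of -0.16 to 0.21 and an adjusted limma p of 0.980. On the linear scale the interval covers a knockout signal of 0.896 to 1.15 times that of wild type. Leaving out knockout replicate 1 gave -0.02 and leaving out wild-type replicate 3 gave -0.01, so that the sign is not settled. A list of 11 markers covered cholecystokinin interneurons, the cells richest in CB1, and also GABAergic cells in general. Its mean log2 signal was 7.17 to 7.22 in wild type and 7.13 to 7.18 in knockout samples. Of the 11, 3 were higher and 8 lower, 0 passed at an unadjusted p under 0.05, and their median difference was -0.06. The part of these cells in the Cnr1 value was not tested.

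Clcn4, Dhx29 and Tbc1d31 had the profiles most like that of Cnr1 over the 6 samples. Likeness was the root mean square difference after each gene was centred on its own mean, taken over 12977 genes brighter on average than the median probe set. It was 0.0134 for Clcn4, a chloride and proton exchanger gene, 0.0141 for the RNA helicase gene Dhx29 and 0.0144 for Tbc1d31, where Cnr1 itself deviated from its mean by 0.0568. With so many genes compared over 6 samples, close profiles are found by search, and these are given as a description.

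Dagla and Daglb, for the lipases that make 2-arachidonoylglycerol, differed by no more than 0.04 between genotypes. DAGL alpha is the form that supplies retrograde signalling at adult central synapses. Its gene Dagla gave 8.50, 8.33 and 8.38 in wild-type replicates 1 to 3 and 8.48, 8.33 and 8.45 in knockout replicates 1 to 3. The groups covered nearly the same range, with replicate 2 the lowest of both. The difference was 0.01 ± 0.08 (95% interval -0.18 to 0.21, adjusted limma p 0.990).

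Daglb, whose product is best known from microglia and macrophages, gave 7.13, 6.92 and 7.26 in wild type and 7.16, 7.12 and 7.14 in knockout. Wild-type replicates 2 and 3 were the lowest and the highest of all 6 samples, and the knockout samples lay close together between them (SD 0.17 in wild type and 0.02 in knockout, n = 3 each). The difference of 0.04 ± 0.10 therefore hung on single wild-type samples, being -0.06 without wild-type replicate 2 and 0.11 without wild-type replicate 3. Its 95% interval ran from -0.19 to 0.27, with an adjusted limma p of 0.974. Microglia markers were lower in 6 of 8 measured genes, with a mean signal of 6.76 to 6.79 in wild type and 6.69 to 6.79 in knockout, and their part in Daglb was not tested.

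Napepld, for the enzyme that releases anandamide and other acylethanolamides from membrane lipids, varied most among the knockout samples. Its signals were 8.21, 8.34 and 8.21 in wild-type replicates 1 to 3 and 8.63, 8.34 and 8.15 in knockout replicates 1 to 3. Knockout replicate 1 was the highest and knockout replicate 3 the lowest of all 6 samples, so that the knockout range enclosed that of wild type. The SD was 0.25 in knockout and 0.08 in wild type (n = 3 each). The difference was 0.12 ± 0.13 with a 95% interval of -0.18 to 0.41, the widest of the 8 genes, and an adjusted limma p of 0.936. Without knockout replicate 1 it was -0.01 and without knockout replicate 3 it was 0.23.

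Mgll, Abhd6 and Abhd12, for the hydrolases that share the breakdown of 2-arachidonoylglycerol, differed by -0.02 to 0.03. Monoacylglycerol lipase, the product of Mgll, is the main one in brain and sits in presynaptic terminals and in glia. Mgll signals were 7.76, 7.73 and 7.73 in wild type and 7.80, 7.67 and 7.80 in knockout. The wild-type values lay within 0.03 of each other, while knockout replicate 2 was below and the other knockout samples were above all of them. The difference was 0.02 ± 0.07 (95% interval -0.16 to 0.19, adjusted limma p 0.987), and the SD was 0.02 in wild type and 0.08 in knockout.

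Abhd6, whose product acts on the postsynaptic side, gave 8.26, 8.22 and 8.16 in wild-type replicates 1 to 3 and 8.23, 8.23 and 8.26 in knockout replicates 1 to 3. All knockout values fell inside the wild-type range. Its difference was 0.03 ± 0.07, with a 95% interval of -0.14 to 0.19 and an adjusted limma p of 0.974. Abhd12, whose product also cleaves lysophosphatidylserine and is abundant in microglia, gave 8.80, 8.78 and 8.80 in wild type and 8.73, 8.81 and 8.79 in knockout. Knockout replicates 1 and 2 were the lowest and the highest of all 6 samples, with the wild-type values between them. Abhd12 was the only member lower in knockout, at -0.02 ± 0.07 (95% interval -0.18 to 0.14, adjusted limma p 0.982), and without knockout replicate 1 the value was 0.0044.

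Faah, for the membrane amidase that ends anandamide signalling, was higher in each knockout sample than in any wild-type sample. Its signals were 8.34, 8.25 and 8.22 in wild-type replicates 1 to 3 and 8.41, 8.43 and 8.44 in knockout replicates 1 to 3. The knockout values lay within 0.03 of each other, and the gap between the groups was set by wild-type replicate 1. The group means were 8.27 ± 0.06 and 8.43 ± 0.01 (SD, n = 3 each), a difference of 0.16 ± 0.07 or 1.11 times the wild-type signal, with a 95% interval of -0.01 to 0.33 (0.992 to 1.25 times). The unadjusted limma p was 0.0635 and the adjusted p 0.857, so that Faah did not pass the test, and it ranked 1637 by p among the 22180 genes. An exact permutation test, two-sided, gave p = 0.1 for Faah, the lowest value possible with 3 samples a group. Every gene whose groups do not overlap gets this value, so it adds nothing to the lack of overlap. Leaving out single samples gave 0.13 (without wild-type replicate 3) to 0.19 (without wild-type replicate 1).

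**Figure D2:**
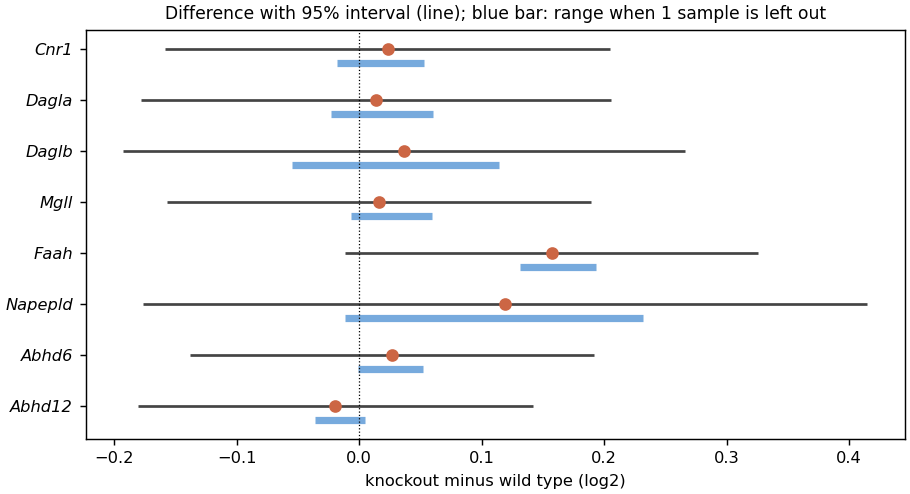
Knockout minus wild type on the log2 scale for each gene; points are differences, black lines 95% intervals from limma (n = 3 each), and blue bars the range of the difference when each sample is left out in turn. All intervals include 0, and for Faah and for no other member the blue bar, from 0.13 to 0.19, stays on one side of 0. Where groups do not overlap, as for Faah, leaving out a sample cannot change the sign.

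Among the other genes of the pathway, none was called either. Of 42 measured genes for further receptors and partners, synthesis, degradation, carriers and Gq signalling, 23 were higher and 19 lower in knockout, with a median difference of 0.01. Limma called 0 of the 42 at an adjusted p under 0.05 and 2 at an unadjusted p under 0.05, both higher. These 2 are 4.76% of the 42, against 5.75% of all genes in either direction and 3.16% higher, and groups did not overlap for 6 (14.3%), against 10.9%.

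The 2 genes are Naaa and Ppara. Naaa encodes a lysosomal acid amidase that cleaves palmitoylethanolamide and, less well, anandamide. Its signals were 7.14, 7.06 and 7.11 in wild-type replicates 1 to 3 and 7.62, 7.24 and 7.47 in knockout replicates 1 to 3. All knockout values were above those of wild type, with a wide spread among them (SD 0.20 against 0.04, n = 3 each). The difference was 0.34 ± 0.11, or 1.27 times the wild-type signal, with a 95% interval of 0.09 to 0.59, and the limma p was 0.0143 before and 0.849 after adjustment. Leaving out knockout replicate 1 gave 0.25, and leaving out knockout replicate 2 gave 0.44.

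Ppara encodes a nuclear receptor activated by fatty acids and by palmitoylethanolamide and oleoylethanolamide. Its signals were dim, which limits what can be read from them, at 4.51, 4.51 and 4.57 in wild type and 4.90, 4.80 and 4.72 in knockout. The groups did not overlap, and the wild-type mean of 4.53 was dimmer than the typical probe set (median 4.72). The difference was 0.28 ± 0.08 (95% interval 0.09 to 0.46), and the limma p was 0.00829 before and 0.849 after adjustment. The lowest adjusted limma p under any alternative run was 0.709 for Faah, 0.686 for Naaa and 0.752 for Ppara.

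**Figure D3:**
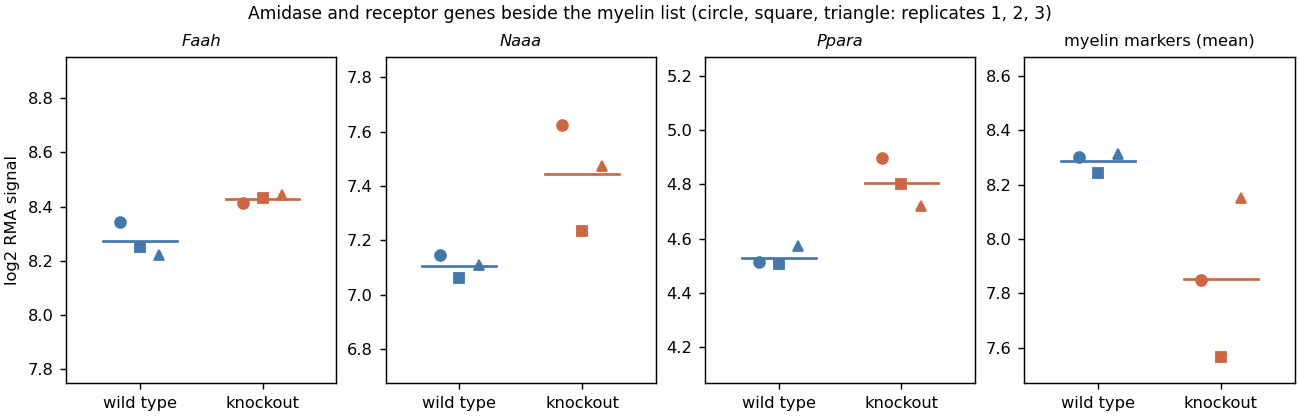
Log2 RMA signal of Faah, Naaa and Ppara and the mean log2 signal of 15 oligodendrocyte and myelin markers in each sample; points are samples and bars group means (n = 3 each), with the same height of 1.2 in every panel. The 3 genes are higher and the myelin markers lower in the knockout samples, without overlap, and the myelin mean runs from 7.56 to 8.15 among knockout samples.

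Myelin markers were lower in the same knockout samples, and their values are given beside those of Faah, Naaa and Ppara. All 15 measured oligodendrocyte and myelin markers were lower in knockout, with a median difference of -0.44 and a range of -0.82 to -0.12. Of the 15, 0 passed at an adjusted and 13 at an unadjusted limma p under 0.05, against 2.59% of all genes lower at the latter. Groups did not overlap for 12, against 4.45% of all genes with every knockout sample below wild type, and markers of 1 cell type are not independent of each other. Their mean signal was 8.30, 8.24 and 8.31 in wild-type replicates 1 to 3 and 7.85, 7.56 and 8.15 in knockout replicates 1 to 3. Tspan2 (-0.62), Aspa (-0.68), Cnp (-0.44) and Opalin (-0.48) had the smallest unadjusted p of that list. The part of the myelin difference in Faah, Naaa and Ppara was not tested. All gene lists here were written with earlier results of these data known, so their counts are descriptions and not independent support.

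No gene of the other cell type lists passed at an adjusted limma p under 0.05. Astrocyte markers, of cells that also hold monoacylglycerol lipase, were higher in 5 and lower in 4 of 9 genes, with mean signals of 8.37 to 8.43 in wild type and 8.33 to 8.46 in knockout. Of the 9, 4 were higher with quantile normalization or median centring. Dentate granule cell markers were higher in 6 of 7 genes, with mean signals of 6.83 to 7.19 in wild type and 7.03 to 7.26 in knockout, and 2 of the 7, Plk5 (0.30) and C1ql2 (0.28), had an unadjusted limma p under 0.05. So had 2 of the 5 CA1 markers, Wfs1 (-0.25) and Mpped1 (0.26), and 2 of the 5 CA3 markers, Iyd (-0.36) and Cpne4 (0.19), against 5.75% of all genes. Groups did not overlap for 1 dentate, 3 CA1 and 2 CA3 markers, against 10.9% of all genes. Endothelial markers were lower in 5 of 6 genes, and 1 of the 6, Abcb1a (-0.26), had an unadjusted p under 0.05, as had 1 of the 8 microglia markers, Ctss (-0.29). The part of these cell types in the values of the 8 genes was not tested.

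The remaining receptors and CB1 partners included Sgip1, whose product limits the internalisation of CB1 and which had the highest signal of its list. Sgip1 differed by 0.06 ± 0.08. The CB1-binding protein gene Cnrip1 gave 7.87, 7.83 and 7.78 in wild type and 7.95, 7.72 and 7.73 in knockout, overlapping groups with a difference of -0.03. The CB2 receptor gene Cnr2 and the genes for the lipid receptors GPR55, GPR18, GPR119 and TRPV1 were all dimmer than the typical probe set, and no level is read from them. Of the 8 measured genes of that list, 2 were higher and 6 lower. Only 2 of the 8, Sgip1 and Cnrip1, had mean signals above the median over all probe sets, so this count rests mostly on dim genes.

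Other synthesis genes gave 0 calls, with 4 of 11 higher and a median difference of -0.0022, and 5 of 11 higher with quantile normalization. Abhd4 and Gde1, on routes to anandamide that bypass NAPE-PLD, differed by -0.00031 and -0.0022, with 95% intervals of -0.23 to 0.23 for Abhd4 and -0.17 to 0.16 for Gde1. Plcb1, the hippocampal phospholipase C beta that makes diacylglycerol, had the highest signal of the list and differed by 0.07 ± 0.07. Other degradation genes were higher in 7 of 10. Among them the cyclooxygenase gene Ptgs2, whose product oxidises both ligands, differed by 0.21 ± 0.15 with knockout replicate 1 far above the rest (8.07 against 7.41 to 7.68). Ppt1 had the highest signal and differed by -0.09 ± 0.07.

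Lipid carriers were higher in 2 of 5 genes, and in 1 of 5 with quantile normalization. Fabp7, a fatty acid binding protein of astrocytes and progenitors and the carrier with the highest signal, lay between 8.79 and 8.98 in wild type and between 8.78 and 9.28 in knockout. The knockout samples spanned the wild-type range, and the difference of 0.15 ± 0.13 was 0.02 without knockout replicate 1 and 0.27 without knockout replicate 3.

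Of the receptors and G proteins that drive release of 2-arachidonoylglycerol, all 8 measured genes were higher in knockout, against 54.9% of all genes, and were so with quantile normalization or median centring too, while 0 passed at an unadjusted p under 0.05. Their median difference was 0.12, against 0.01 over all genes, and the range was 0.01 to 0.16. The metabotropic glutamate receptor gene Grm5 gave 9.45, 9.45 and 9.39 in wild type and 9.46, 9.46 and 9.40 in knockout, with a difference of 0.01 ± 0.07. Its groups overlapped almost wholly, and with quantile normalization the difference was 0.00026. Leaving out single samples gave -0.01 to 0.03, so that the sign for Grm5 is not settled. The muscarinic receptor gene Chrm1 also differed by 0.01. The largest differences were those of the dim orexin receptor gene Hcrtr1 (0.16) and of Gna11 (0.16), which encodes a Gq-class alpha subunit, and these 2 of the 8 had groups that did not overlap, against 10.9% of all genes in either direction and 6.41% higher.

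**Figure D4:**
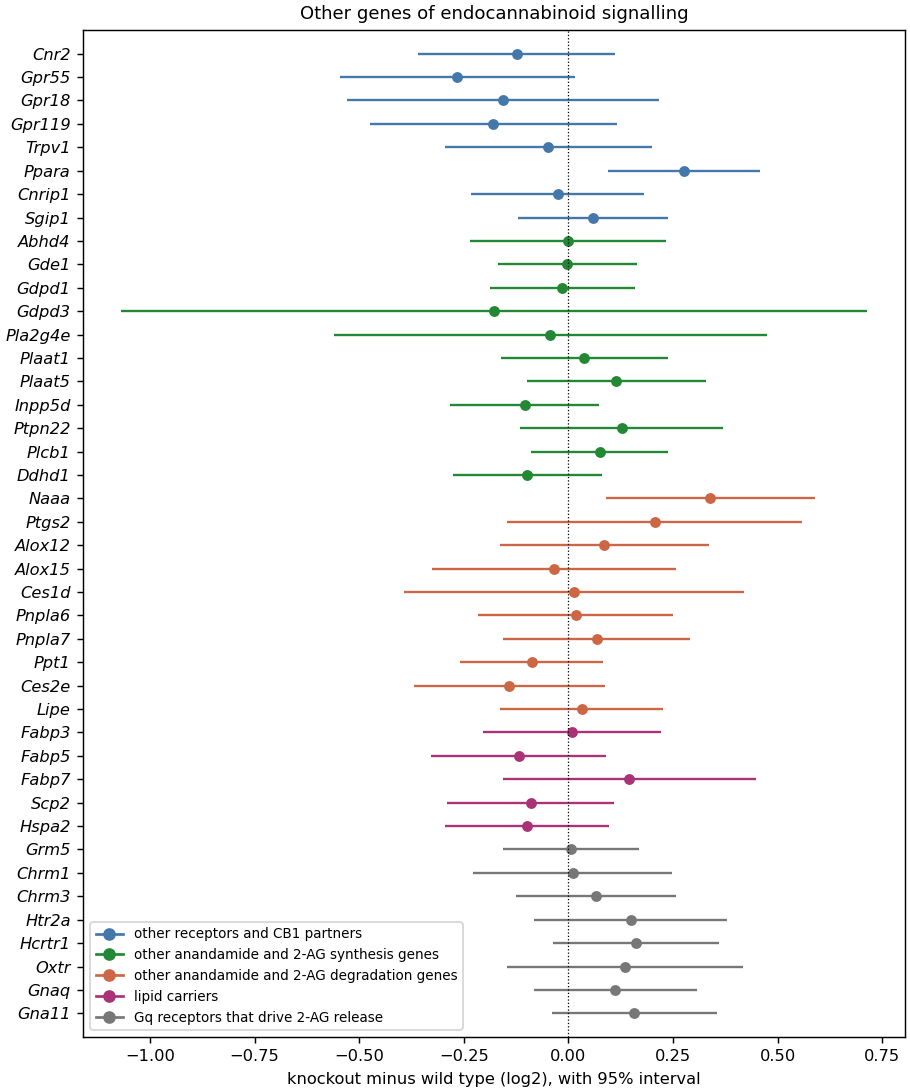
Knockout minus wild type on the log2 scale for the 42 other pathway genes, coloured by role, with 95% intervals from limma (n = 3 each). The intervals of Ppara and Naaa lie above 0, those of the other 40 genes include 0, and the widest is that of Gdpd3, whose difference is -0.18.

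The scatter between samples differed among the 8 genes and was widest for Napepld and Daglb. The SD within groups, pooled over both genotypes, had a median of 0.06 over the 8 genes. It was 0.10 over the 12978 genes brighter on average than the median probe set. That larger set reaches down to 4.72, so these medians come from genes of unlike level. Standard errors ran from 0.07 for Abhd12 to 0.13 for Napepld. All 8 genes exceeded 4.72, the median over all probe sets, in all 6 samples, with values between 6.92 and 8.81. The highest signal of a list picks a gene to describe and is not read as the most RNA, since probes differ in how brightly they bind.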

How the data were processed

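Per the submitters' processing notes, RMA and Affymetrix Power Tools gave the log2 values that the authors deposited for the 6 arrays. Their versions, annotation and build are not named in the labels. Joint normalization hides a change shared by most genes, and without raw scans no background was measured. The number of arrays limits precision: the median standard error of a difference was 0.10.

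Of 41345 probe sets, 23521 named 1 gene, and the brightest per gene gave 22180 genes. All 8 members matched RefSeq (GRCm38.p6) by gene number. Genotype was tested with limma 3.58.1 in R 4.3.3 (lmFit, eBayes, Benjamini-Hochberg over all genes), and the fit was checked on simulated data. Members and lists were chosen with earlier results of these data known. Named genes are all members, Trpc4, up to 4 list genes of smallest unadjusted p under 0.05, the brightest of each pathway list and the 3 profiles nearest Cnr1; Cnrip1, Cnr2, Gpr55, Gpr18, Gpr119, Trpv1, Abhd4, Gde1, Ptgs2, Chrm1, Hcrtr1, Gna11 and Gdpd3 were chosen after their values were seen. Alternatives were quantile normalization and median centring, the replicate number as a block, weights per array, eBayes with trend and robust, leaving out dim probe sets or single samples, all or averaged probe sets, and an unadjusted threshold. Figures used matplotlib 3.10.9 in Python 3.11.15.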

Additional observations from a re-analysis of the deposited data

How the results depend on the processing

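The count of members called at an adjusted limma p under 0.05 stayed at 0 under each alternative run. In the main fit it was also 0 at an unadjusted limma p under 0.05. The count of all genes called was 1 under eBayes with trend and robust (Trpc4 at a limma adjusted p of 0.0378). At an unadjusted limma p under 0.05 in the main fit it was 1276. When single samples were left out it was 0 to 1. The 1 call came without knockout replicate 1 and was not Trpc4, whose adjusted limma p there was 0.884. With quantile normalization the difference of Dagla turned to -0.0035, the only sign change among members outside the left-out samples. When single samples were left out, the ranges were -0.018 to 0.053 for Cnr1, -0.023 to 0.060 for Dagla, -0.055 to 0.11 for Daglb, -0.0067 to 0.060 for Mgll, -0.012 to 0.23 for Napepld, -0.0010 to 0.052 for Abhd6 and -0.036 to 0.0044 for Abhd12, each spanning 0. Outside the members they were -0.014 to 0.046 for Clcn4, -0.026 to 0.046 for Dhx29, -0.021 to 0.058 for Tbc1d31 and -0.014 to 0.026 for Grm5. Faah had an unadjusted limma p of 0.0157 under eBayes with trend and robust, 0.0386 with only probe sets above the median and 0.0434 without wild-type replicate 1, and its adjusted p lay between 0.709 and 0.985. Deviations of samples with the same replicate number had correlations across genes of 0.07, 0.03 and -0.0038 for numbers 1 to 3. Between unlike numbers they ran from -0.06 to 0.03. With 3 samples a group these values cannot settle whether the numbers pair the samples. Over all genes the lowest adjusted limma p was 0.176 with the replicate number as a block, against 0.738 in the main fit. With the replicate number as a block the count of members called was 0 and Faah differed by 0.16 ± 0.08 (adjusted limma p 0.837). The number of arrays, 3 a group, limits what can be seen.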
